A study of Homo sapiens with 32 samples.

Results

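Vehicle-treated cells of the lymphoma line TMD8 were compared with vehicle-treated cells of the line DOHH2, using 6 RNA libraries per line collected after 1, 3 and 6 h in DMSO. The features described are those with a mean log2 value of 5 or more in at least 1 line. There were 12878 of them among 25066 features in the deposited table. Of these, 10693 reached 5 in both lines, 1333 in TMD8 only and 852 in DOHH2 only. A value of 5 corresponds to between 16.7 and 26.4 reads, depending on the library. At the edge of the rule, CD5L (means of 3.796 in TMD8 and 5.0013 in DOHH2) and SSTR2 (5.0013 and 2.3462) lay just inside, and IL17RE (4.9997 and 3.8677) and SPEG (4.9988 and 3.0715) just outside.

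The study exposed both lines to an inhibitor of the kinase CSK at 500 nM, or to DMSO, and sampled 2 libraries at each of 4 times, giving 32 libraries. Both lines are labelled as human diffuse large B cell lymphoma lines engineered with Cas9, and the controls carry that modification too. The 6 groups compared here were TMD8 in DMSO and DOHH2 in DMSO at 1, 3 and 6 h, with 2 libraries in each. The 24 h libraries were left out because the DOHH2 labels at that time look crossed. Each type of lymphoma is represented by 1 line, so a difference between types and a difference between these cultures cannot be told apart. The titles call the duplicates biological replicates without naming separate cultures, and p-values therefore measure only the spread between these libraries.

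Diffuse large B cell lymphoma is divided by cell of origin into an activated B cell type, which resembles cells leaving the germinal centre for plasma cell differentiation, and a germinal centre B cell type. The activated type typically depends on chronic B cell receptor and Toll-like receptor signals that converge on the transcription factor NF-kB, and TMD8 is known for activating mutations in MYD88 and CD79B. Germinal centre type lines such as DOHH2 keep a BCL6-driven programme, and DOHH2 carries a translocation that places BCL2 next to the immunoglobulin heavy chain locus. CSK restrains the Src family kinases that start B cell receptor signalling, which is why the starting level of these kinases in each line is of interest.

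The 12 libraries held 14055255 to 22629229 mapped reads. Correlations over the 14159 features tested (defined below) were 0.9885 to 0.9942 between libraries of a line and 0.7008 to 0.7102 between lines. They are given as a description. Differences are on the deposited log2 scale, where a feature with no read is set to 0. Many genes at or near 0 reads are therefore described by reads, with a floor of 3 reads over the 6 libraries of a line. Others, such as FCRL4, CCL22, IL13RA1 and FCER2, are given as log2 differences. The size of those differences depends on the 0 set for no read, which their SE does not cover. In bulk RNA, fewer cells of a kind and less RNA per cell cannot be told apart.

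The lines differed across most of the transcriptome. Of 14159 features tested (mean of 2.5 or more over the 12 libraries, which lets every feature of the rule through), 12510 differed at adjusted p under 0.05 by limma, or 88.4%. They were divided almost evenly, with 6206 higher in TMD8 (43.8%) and 6304 higher in DOHH2 (44.5%). A difference of at least 2-fold was called for 2927 features higher in TMD8 (20.7%) and for 2550 higher in DOHH2 (18.0%). Under quantile normalization this order turned, with 2561 features higher in TMD8 and 3104 in DOHH2. The values of the 2 lines did not overlap for 9856 features (69.6%). The median difference, TMD8 minus DOHH2, was -0.01 and the median absolute difference 0.72. With so many calls, a share of a gene list that merely passes the test carries little information, and the sizes below are read against these percentages.

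**Figure D1:**
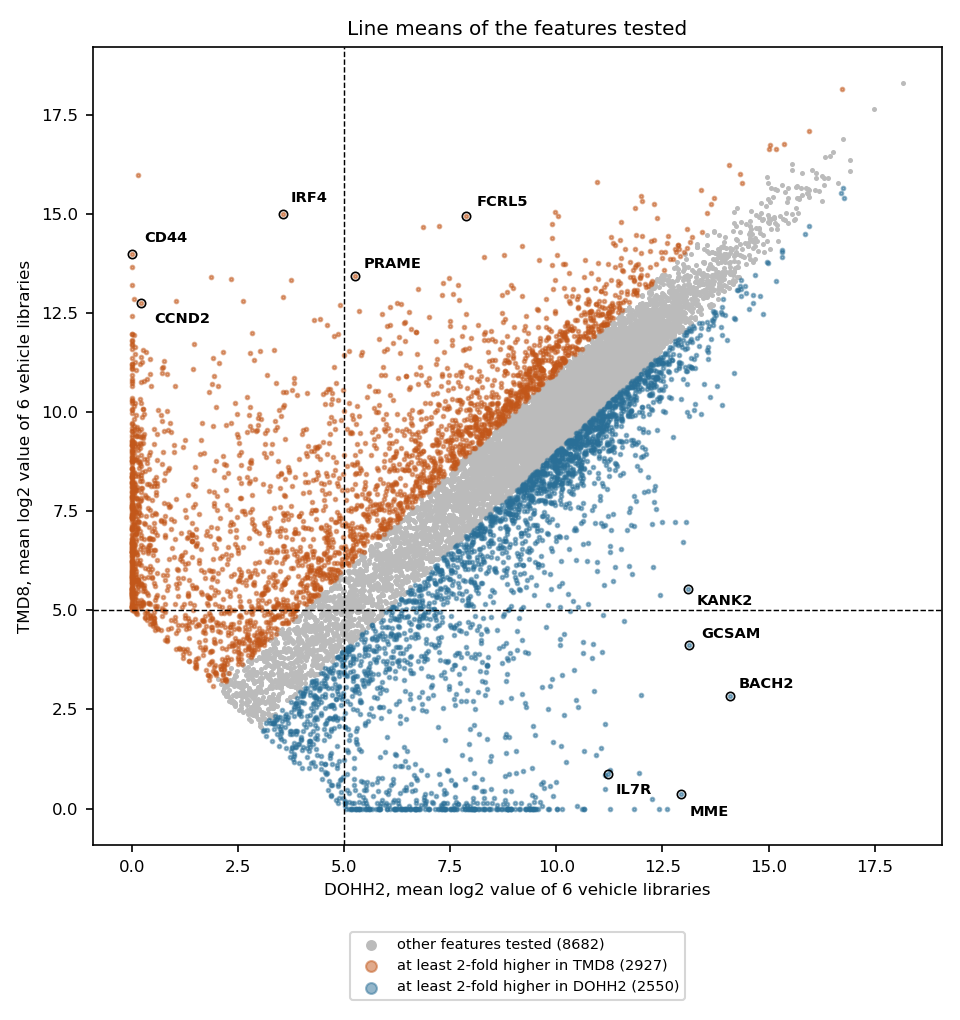
Mean log2 value of the 6 TMD8 libraries (vertical) against that of the 6 DOHH2 libraries (horizontal) for the 14159 features tested. Orange points (2927) and blue points (2550) differ by at least 2-fold at adjusted p under 0.05, dashed lines mark a mean of 5, and circled genes are named in the text. Features along the left and lower edges had almost no reads in one of the lines.

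The genes of the Lymph2Cx cell-of-origin assay separated the lines in the direction of the types that TMD8 and DOHH2 are known for. All 8 genes of its activated B cell type list were at least 2-fold higher in TMD8 (median difference 4.42), and all 7 of its germinal centre type list were higher in DOHH2 (median -4.62), 6 of them by at least 2-fold. IRF4, a transcription factor that drives exit from the germinal centre, ranged from 14.79 to 15.16 (median 15.05) in the 6 TMD8 libraries and from 2.95 to 4.24 (median 3.64) in DOHH2. The groups were far apart, and the difference was 11.45 ± 0.08 (SE, adjusted p = 2.12e-16). CREB3L2, a membrane-bound transcription factor of the secretory pathway, had 12081 reads over the TMD8 libraries and 1 read over those of DOHH2, a ratio of 13901 (95% counting interval 2494 to 549096). Intervals of this kind cover counting error only.

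The other activated-type genes covered a range of sizes. The reductase gene CYB5R2 was higher by 5.60 ± 0.08 and TNFRSF13B, which encodes the BAFF and APRIL receptor TACI, by 4.60 ± 0.06. RAB29, a small GTPase of the Golgi, was higher by 4.23 ± 0.02 and the survival kinase PIM2 by 2.43 ± 0.04. The smallest differences of the 8 were those of CCDC50 (1.80 ± 0.03) and the scaffold gene LIMD1 (1.40 ± 0.02). None of the 8 overlapped between the lines, which also held for 69.6% of all features tested.

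Among the germinal centre genes, MME (the surface peptidase CD10) had 3 reads over the TMD8 libraries and 33955 over those of DOHH2, a ratio of 9837 in favour of DOHH2 (interval 3366 to 47701). MAML3, a NOTCH coactivator, had 1 read against 2266. S1PR2, the receptor that confines B cells to the germinal centre, lay between 6.92 and 7.54 (median 7.10) in TMD8 and between 11.56 and 11.94 (median 11.76) in DOHH2, a difference of -4.62 ± 0.09 with adjusted p = 4.17e-13. ASB13 differed by -6.76 ± 0.21. The remaining members differed less: MYBL1 by -1.70 ± 0.05, SERPINA9 by -1.08 ± 0.05 and the inositol kinase ITPKB by -0.68 ± 0.03. In TMD8, SERPINA9 still lay between 8.29 and 8.71 and MYBL1 between 7.88 and 8.77.

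The 5 reference genes of the assay differed by less than 2-fold. UBXN4 differed by 0.06 ± 0.02 with overlapping values, and WDR55 did not pass the test (difference 0.03 ± 0.03, adjusted p = 0.362). R3HDM1 was lower in TMD8 by 0.13 (difference -0.13 ± 0.03). TRIM56 (-0.72 ± 0.03) and ISY1 (-0.77 ± 0.03) were lower in TMD8 with no overlap.

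**Figure D2:**
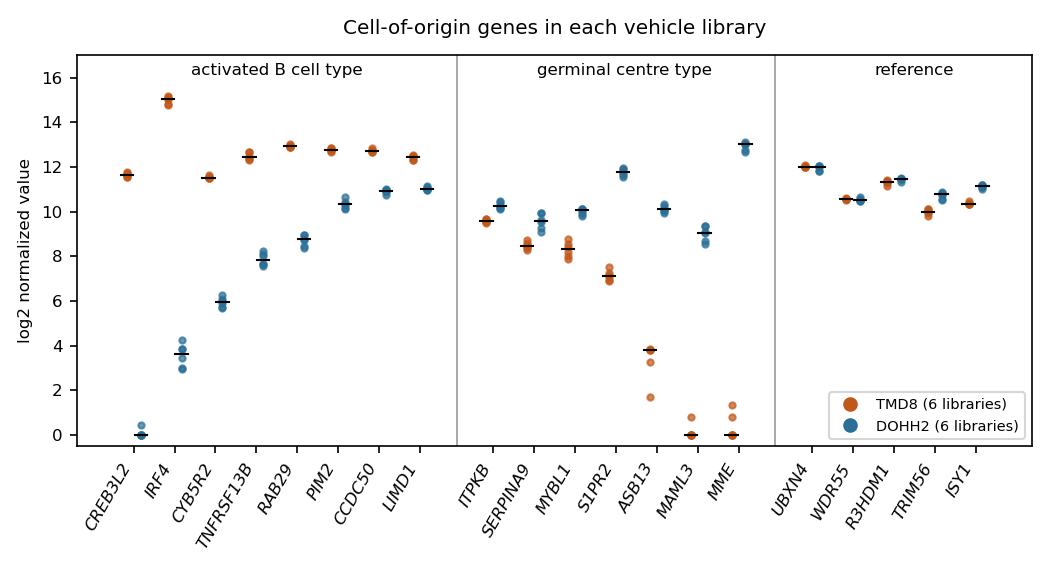
Log2 normalized value of the 15 type genes and 5 reference genes of the Lymph2Cx assay in each vehicle library. Points are libraries, 6 per line, and black lines are medians. The 8 activated-type genes lie higher in TMD8 (orange) and the 7 germinal centre genes higher in DOHH2 (blue), with differences from -12.57 for MME to 11.57 for CREB3L2 on this scale.

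Transcription factors of B cell identity were divided between the lines. Of 26 tested, 14 were higher in TMD8 and 11 in DOHH2, 9 and 7 of them by at least 2-fold. Over all features tested the shares were 43.8% and 44.5%, and 20.7% and 18.0% by at least 2-fold. BACH2, a repressor of plasma cell differentiation, ranged from 13.97 to 14.23 (median 14.07) in DOHH2 and from 0.81 to 3.69 (median 3.35) in TMD8, where the 6 libraries held 33 reads in all. GCSAM, a germinal centre adaptor placed on this list for its expression, lay between 12.96 and 13.42 in DOHH2 and between 3.94 and 4.33 in TMD8. For both genes the lowest DOHH2 library lay far above the highest TMD8 library.

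BCL6, the repressor at the centre of the germinal centre programme, differed far less. It lay between 9.36 and 9.95 in TMD8 and between 10.46 and 11.01 in DOHH2, a difference of -1.03 ± 0.02. The coactivator POU2AF1 (-3.09 ± 0.02), the HLH inhibitor ID3 (-3.38 ± 0.04) and FOXO1 (-2.62 ± 0.03) were also higher in DOHH2. KLF2, a regulator of migration (4.20 ± 0.10), and SPIB, an Ets factor (3.30 ± 0.01), were higher in TMD8. PAX5, the factor that maintains B cell identity, was higher in TMD8 by 0.74 ± 0.02 and EBF1, its partner in lineage commitment, by 0.78 ± 0.04.

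Of 13 activated B cell and plasmablast factors tested, 8 were higher in TMD8, each by at least 2-fold, and 5 in DOHH2, 3 of them by at least 2-fold. PRDM1 (Blimp-1, which initiates the plasma cell programme) lay between 12.01 and 12.67 (median 12.11) in TMD8 and between 5.65 and 7.09 (median 6.27) in DOHH2, a difference of 5.84 ± 0.07. BATF, an AP-1 family partner of IRF4, differed by 5.57 ± 0.05 and STAT3 by 3.16 ± 0.02. XBP1, the factor that expands the secretory apparatus of plasma cells, went the other way (-0.93 ± 0.03). JCHAIN, which joins secreted immunoglobulin polymers, was higher in DOHH2 by a wide margin (-5.57 ± 0.06). Plasma cell markers were mixed, with 5 of 10 higher in TMD8 and 4 in DOHH2, against 43.8% and 44.5% of all features tested.

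Surface genes of the B lineage were more often higher in TMD8: 19 of 29 against 8 in DOHH2, with 17 and 7 differing by at least 2-fold. CD44, a hyaluronan receptor, ranged from 13.92 to 14.05 in TMD8 (60880 reads) and had 0 reads in DOHH2, which places it at least 23400-fold higher in TMD8. SLAMF7 (8.96 ± 0.20) and CD5 (6.87 ± 0.25) were also higher in TMD8. CD38 (-6.72 ± 0.28), the low-affinity IgE receptor FCER2 (-6.42 ± 0.36) and CD27 (-3.47 ± 0.11) were higher in DOHH2. MS4A1, which encodes CD20, lay between 15.37 and 15.56 in TMD8 and between 11.86 and 12.09 in DOHH2, a difference of 3.46 ± 0.02.

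Members of the Src kinase family differed in both directions. These kinases phosphorylate the CD79 chains of the B cell receptor, and CSK switches them off. BLK, a kinase of the family found mainly in B cells, lay between 9.16 and 9.52 (median 9.45) in TMD8 and between 12.49 and 12.98 (median 12.74) in DOHH2, a difference of -3.38 ± 0.02 (adjusted p = 2.16e-16). LYN, the main Src kinase of B cells, went in the opposite direction and lay between 14.27 and 14.45 (median 14.32) in TMD8 and between 12.06 and 12.51 (median 12.38) in DOHH2, a difference of 2.02 ± 0.02. No library of one line overlapped those of the other for either gene. SRC (2.40 ± 0.11) was higher in TMD8, and YES1 had 669 reads in TMD8 and 0 in DOHH2, at least 254-fold higher. LCK (-6.77 ± 0.27), FGR (-3.81 ± 0.17) and FYN (-1.17 ± 0.06) were higher in DOHH2.

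The regulators of the family differed as well. CSK itself, the target of the inhibitor in the other arm, lay between 14.19 and 14.25 in TMD8 and between 13.22 and 13.46 in DOHH2, a difference of 0.92 ± 0.01 without overlap. PAG1, the membrane adaptor that recruits CSK, was higher in DOHH2 (-2.66 ± 0.03). The phosphatases PTPRC (CD45, 1.12 ± 0.01) and PTPN1 (3.28 ± 0.02) were higher in TMD8. PTPN22 did not pass the test (-0.05 ± 0.05, adjusted p = 0.28). Of all 14 kinases and regulators tested, 8 were higher in TMD8 and 5 in DOHH2, against 43.8% and 44.5% of all features tested.

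**Figure D3:**
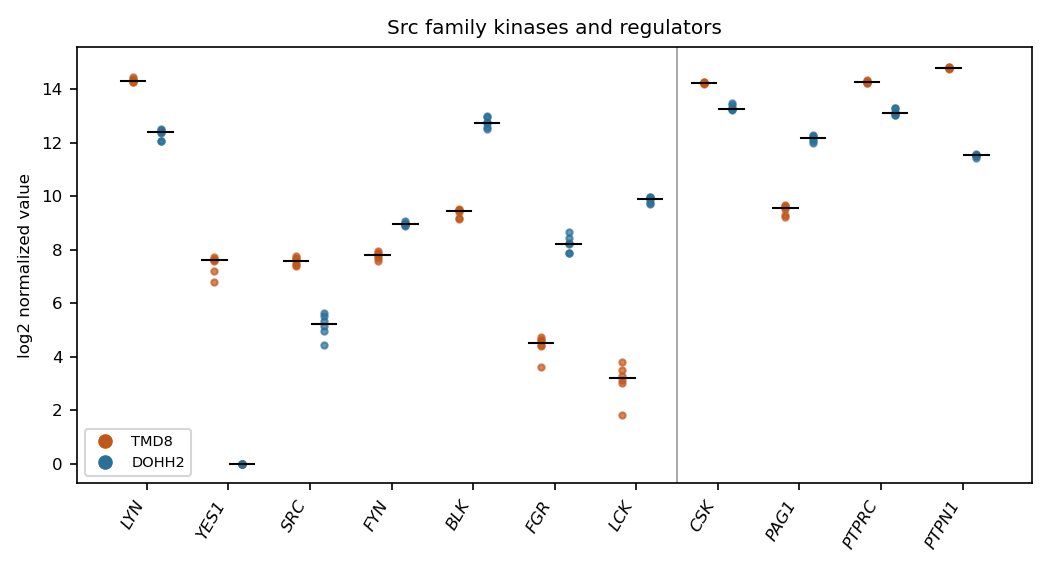
Log2 normalized values of 7 Src family kinases and 4 regulators (right of the grey line) in each of 6 vehicle libraries per line, with medians as black lines. LYN, YES1 and SRC lie higher in TMD8 (orange), and FYN, BLK, FGR and LCK lie higher in DOHH2 (blue).

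Downstream of the receptor, 26 of 38 proximal signalling genes were higher in TMD8 and 10 in DOHH2, with 14 and 6 differing by at least 2-fold. PRKCB, a protein kinase C that carries the receptor signal toward NF-kB, lay between 12.15 and 12.25 in TMD8 and between 5.82 and 6.34 in DOHH2, a difference of 6.11 ± 0.07. The adaptor BANK1 (5.93 ± 0.07) and the exchange factors VAV2 (2.75 ± 0.03) and RASGRP3 (2.5 ± 0.02) were also higher in TMD8. UBASH3B, a phosphatase that acts on SYK, was higher in DOHH2 by 7.92 (difference -7.92 ± 0.30), as was VAV3 (-2.61 ± 0.06). The receptor chains CD79A (1.03 ± 0.01) and CD79B (0.84 ± 0.01) and the kinases SYK (0.13 ± 0.01) and BTK (-0.36 ± 0.01) differed by small amounts, and the values of SYK overlapped between the lines.

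NF-kB controls survival and inflammatory genes through dimers of RELA, REL and RELB with NFKB1 or NFKB2, held back by inhibitors such as NFKBIA. Of 21 subunits and inhibitors tested, 14 were higher in TMD8 and 6 in DOHH2, 8 and 1 of them by at least 2-fold. TNFAIP3 (A20), a deubiquitinase that ends the signal and is itself induced by it, lay between 11.71 and 11.84 (median 11.80) in TMD8 and between 6.13 and 6.82 (median 6.43) in DOHH2, a difference of 5.34 ± 0.07 (adjusted p = 1.31e-14). The nuclear regulators BCL3 (4.64 ± 0.04) and NFKBIZ (3.54 ± 0.03) followed, then NFKB2 (2.51 ± 0.05) and RELB (1.78 ± 0.02). RELA did not pass the test (0.05 ± 0.02, adjusted p = 0.068), and REL differed by -0.21 ± 0.05 with overlapping values. IKBKE, a kinase of the pathway, was higher in DOHH2 (-1.57 ± 0.05).

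The target genes went further in the same direction, though this list shares some members with that of subunits and inhibitors. Of 31 tested, 27 were higher in TMD8 and 3 in DOHH2, 24 and 2 by at least 2-fold, with a median difference of 2.77 against -0.01 over all features. The cytokine genes had almost no reads in DOHH2. TNF had 2503 reads in TMD8 and 1 in DOHH2, LTA 767 and 1, IL6 427 and 3, and IL10, an autocrine cytokine of this lymphoma type, 1123 and 0 (at least 424-fold higher). LTB, which encodes lymphotoxin beta, lay between 9.77 and 10.19 in TMD8 and between 1.37 and 3.74 in DOHH2 (7.18 ± 0.23). The chemokine CCL22 differed by 7.61 ± 0.24 and BIRC3, an inhibitor of apoptosis, by 5.65 ± 0.05. The genes higher in DOHH2 were IL2RA (-3.00 ± 0.20), SOD2 (-1.19 ± 0.03) and TRAF2 (-0.62 ± 0.04).

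Promoter windows are shown for 5 of these genes, to set the sequence that NF-kB proteins can bind beside members with large differences. RefSeq promoters (250 bases before to 50 after the annotated start, build GRCh38.p14) were found for 39 of the 47 NF-kB subunits, inhibitors and targets tested, and 14 of the 39 held the kappa B consensus on either strand. Over all 27305 promoters of the table the share was 10.8%. It was 14.4% for genes at least 2-fold higher in TMD8, 14.2% for genes at least 2-fold higher in DOHH2 and 11.8% for the other genes tested. Capitals mark the match in each window, which is written 5′ to 3′ on the strand of the gene.
TNFAIP3, chr6:137867157-137867236, plus strand: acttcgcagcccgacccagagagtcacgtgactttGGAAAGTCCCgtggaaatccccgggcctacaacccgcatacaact
BIRC3, chr11:102317250-102317329, plus strand: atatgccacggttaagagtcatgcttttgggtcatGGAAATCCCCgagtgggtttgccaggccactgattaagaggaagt
IL6, chr7:22727092-22727171, plus strand: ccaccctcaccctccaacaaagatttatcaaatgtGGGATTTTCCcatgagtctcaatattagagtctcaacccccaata
LTB, chr6:31582467-31582546, minus strand: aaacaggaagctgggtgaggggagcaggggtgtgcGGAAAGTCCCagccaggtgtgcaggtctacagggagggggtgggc
NFKBIZ, chr3:101827740-101827811, plus strand: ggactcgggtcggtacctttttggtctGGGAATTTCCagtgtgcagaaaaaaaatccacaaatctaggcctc
The TNFAIP3, BIRC3 and LTB promoters held 2 matches each, of which the windows mark 1. NFKB1 (0.60 ± 0.03), REL and IL2RA also held the consensus, and these genes were respectively a little higher, about level and lower in TMD8. A sequence of the AP-1 type, TGANTCA on either strand, was found in 1 of the 24 target genes with a promoter in the table. Its share was 7.76% over all promoters, 5.36% and 5.12% for genes at least 2-fold higher in TMD8 and in DOHH2, and 3.92% for the other genes tested. A match is a run of letters and no evidence of binding.

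Genes of Toll-like receptors and their adaptors and regulators were more often higher in TMD8. The counts were 14 of 21 against 5 in DOHH2, and 8 and 2 by at least 2-fold. TLR8 had 362 reads in TMD8 and 0 in DOHH2, at least 139-fold higher. TLR4 (4.78 ± 0.08), the kinase-dead regulator IRAK3 (4.72 ± 0.17), TLR2 (4.28 ± 0.08) and TLR7 (2.14 ± 0.05) were higher in TMD8. IRAK2 was higher in DOHH2, at 85 reads against 10. MYD88, the adaptor that most of these receptors share, did not pass the test: it lay between 12.03 and 12.13 in TMD8 and between 12.03 and 12.10 in DOHH2 (0.03 ± 0.02, adjusted p = 0.155).

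Of 35 genes of cytokine receptors, JAK, STAT and SOCS proteins, 25 were higher in TMD8 and 9 in DOHH2, with 19 and 6 differing by at least 2-fold. SOCS3, a feedback inhibitor induced by STAT3, had 3062 reads in TMD8 and 1 in DOHH2, a ratio of 3523 (interval 632 to 139205). IL2RB had 2215 reads against 2, and IL13RA1 differed by 7.78 ± 0.29. IL7R, the receptor of an early B cell growth factor, was the largest difference in the other direction, with 10.89 to 11.56 (median 11.18) in DOHH2 and 0 to 1.81 (median 0.68) in TMD8. Its 10307 reads in DOHH2 stood against 7 in TMD8.

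Chemokine and migration genes were nearly balanced, with 16 of 30 higher in TMD8 and 12 in DOHH2. All features tested were so too, with 43.8% and 44.5%. By at least 2-fold, 11 of the 30 were higher in TMD8 and 10 in DOHH2, against 20.7% and 18.0% of all features tested. GPR183, which draws B cells to follicle edges, differed by 7.67 ± 0.21, and CXCL13 (204 reads against 1) and CCR9 (205 against 2) were found almost only in TMD8. S1PR4 (-5.17 ± 0.11) and CXCR4, the receptor of dark zone cells (-3.72 ± 0.04), were higher in DOHH2.

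MHC genes went both ways, as did all features tested (43.8% higher in TMD8 and 44.5% in DOHH2). Of 17 class I and processing genes, 9 were higher in TMD8 and 6 in DOHH2, with a median difference of 0.06. HLA-B differed by 0.09 ± 0.01, and HLA-C did not pass the test (0.03 ± 0.02, adjusted p = 0.25). Of 17 class II genes, 3 were at least 2-fold higher in TMD8 and 6 in DOHH2. HLA-DQA2 had 4454 reads in TMD8 and 1 in DOHH2, HLA-DQA1 was higher in TMD8 (1.48 ± 0.06) and HLA-DQB1 higher in DOHH2 (-3.85 ± 0.09). HLA-DRA, the alpha chain of the DR dimer, differed by 0.07 ± 0.01. CIITA, the master activator of class II, was higher in DOHH2 (-1.02 ± 0.04) and CD74, the chaperone of class II, higher in TMD8 (1.41 ± 0.02). HLA genes are near-identical to each other and vary between people, so counting against 1 reference can misassign their reads, and these values are uncertain.

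The genes of the BCL2 family that protect from apoptosis were divided. BCL2A1, an NF-kB target, lay between 12.25 and 12.35 in TMD8 and between 6.70 and 8.25 in DOHH2 (4.78 ± 0.06). MCL1 (1.02 ± 0.02) and BCL2L1 (1.04 ± 0.04) were higher in TMD8 and BCL2L2 (-1.74 ± 0.05) in DOHH2. BCL2 was present in both lines, with 12.05 to 12.41 in TMD8 and 12.51 to 12.67 in DOHH2 (-0.30 ± 0.02). Among 11 genes that promote death, 9 were higher in TMD8. They included BCL2L11, which encodes BIM (2.84 ± 0.01), and BIK (3.20 ± 0.12). PMAIP1, which encodes NOXA (-2.60 ± 0.03), and HRK (-2.52 ± 0.10) were higher in DOHH2.

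The D cyclins were divided between the lines. CCND2 had 25958 reads in TMD8 and 2 in DOHH2, a ratio of 14934 (interval 4134 to 123322), and CCND1 differed by 5.16 ± 0.28. CCND3 (-1.34 ± 0.03) and its partner CDK6 (-1.85 ± 0.04) were higher in DOHH2. The inhibitor CDKN1A (p21) was higher in TMD8 (2.67 ± 0.03) and CDKN1B (p27) in DOHH2 (-0.97 ± 0.04). CDKN2A, CDKN2B and their chromosomal neighbour MTAP had 0 reads in all 12 libraries, which allows up to 3 reads per line.

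Proliferation genes were higher in DOHH2 for 23 of 24 members, with a median difference of -0.63, but only 6 reached 2-fold. These values average 1, 3 and 6 h. By the F test, the difference changed with time for 18 of the 24, against 18.6% of all features tested. RRM2, a subunit of ribonucleotide reductase, lay between 11.90 and 12.01 in TMD8 and between 13.74 and 14.05 in DOHH2 (-1.96 ± 0.02), and the helicase subunit MCM7 differed by -1.88 ± 0.01. TK1 (-1.31 ± 0.03) and CCNA2 (-1.28 ± 0.02) followed. MCM5 was the member that went the other way (0.56 ± 0.02). The smallest differences of the list, in TYMS (-0.05 ± 0.02) and AURKA (-0.08 ± 0.03), had overlapping values.

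Inhibitory and Fc receptor-like genes were higher in TMD8 for 17 of 24 members and in DOHH2 for 7, with 13 and 6 by at least 2-fold. FCRL5 lay between 14.83 and 15.09 (median 14.91) in TMD8 and between 7.47 and 8.05 (median 7.91) in DOHH2 (7.08 ± 0.05). FCRL4, a marker of tissue memory B cells (8.68 ± 0.23), FCRL3 (5.61 ± 0.06), SIGLEC10 (4.47 ± 0.04) and CD274, which encodes PD-L1 (6.39 ± 0.10), were also higher in TMD8. LILRB2 was higher in DOHH2, with 1194 reads against 5. Among 23 adhesion genes, 12 were at least 2-fold higher in TMD8 and 3 in DOHH2. The integrin chain ITGAX (CD11c, 9.15 ± 0.23), ITGA2 (881 reads against 3), ITGA1 (630 against 0) and L1CAM (7.13 ± 0.14) were higher in TMD8.

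Metabolic genes and chromatin regulators went both ways. Over all features tested, 20.7% were at least 2-fold higher in TMD8 and 18.0% in DOHH2. Of 25 cholesterol and fatty acid genes, 7 were higher in TMD8 and 17 in DOHH2, and 1 and 5 reached 2-fold. SREBF1 (-1.47 ± 0.08) and FASN (-1.39 ± 0.03) were higher in DOHH2 and LSS (1.44 ± 0.02) in TMD8. Of 20 glycolysis genes, 7 were higher in TMD8 and 11 in DOHH2, and 3 and 1 reached 2-fold. ENO2, the neuronal enolase, differed by 5.64 ± 0.18 and ALDOC by 3.04 ± 0.07. Among 16 chromatin regulators, 3 were at least 2-fold higher in TMD8 and 5 in DOHH2. TET2 was higher in TMD8 (2.22 ± 0.04), and BCL7A (-1.60 ± 0.02) and SMARCA4 (-1.35 ± 0.01) in DOHH2.

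Interferon-stimulated genes went both ways, with 14 of 26 higher in TMD8 and 11 in DOHH2. So did all features tested, with 43.8% and 44.5%. The sensor IFIH1 (3.12 ± 0.05) and the antiviral GTPase MX2 (2.60 ± 0.02) were higher in TMD8. IFITM1 (-5.48 ± 0.11), IFI44L (-3.07 ± 0.11) and RSAD2 (408 reads in DOHH2 against 12) were higher in DOHH2.

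**Figure D4:**
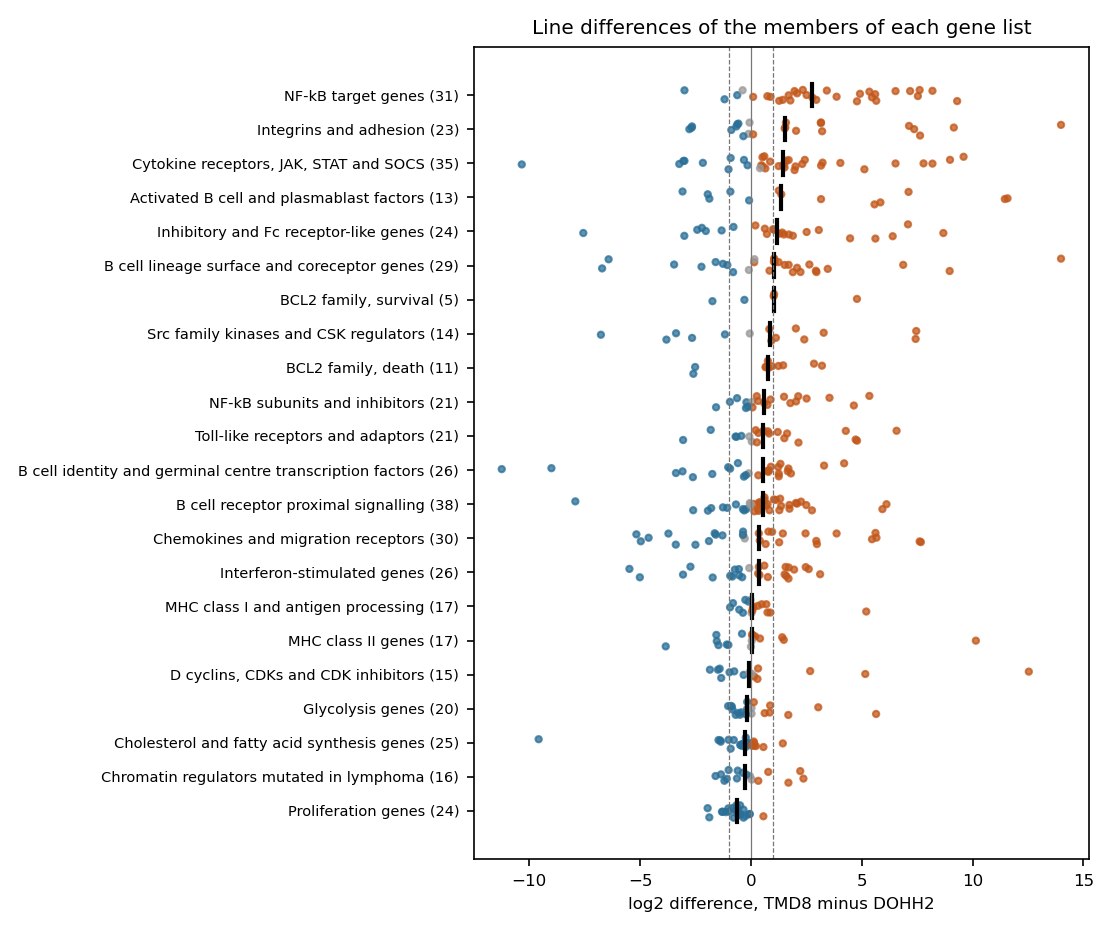
Log2 difference, TMD8 minus DOHH2, of each tested member of 22 gene lists (number tested in brackets), ordered by the list median (black bar). Orange and blue points passed the test in the direction of TMD8 and DOHH2, grey points did not, and dashed lines mark 2-fold. NF-kB targets have the highest median (2.77) and proliferation genes the lowest (-0.63).

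The largest differences over the whole table were genes read in one line and almost unread in the other. Since the rule selects such genes by their level, they are described without a count. In TMD8, after CD44, they were GZMB (granzyme B, a protease of cytotoxic and plasmacytoid cells, 48675 reads against 0), PARM1 (35447 against 0), the membrane-binding ANXA2 (27858 against 1), CCND2, GLUL (glutamine synthetase, 20674 against 0), GTSF1 (15127 against 0), the interferon-inducible MNDA (15137 against 0), SIGLEC6 (14789 against 1) and the repressor BHLHE41 (13724 against 0). In DOHH2, beside MME and BACH2, they were SMAD1 (a mediator of BMP signals, 27030 reads against 0), BMP7 (a ligand of that pathway, 23815 against 0), the G protein subunit GNG7 (21359 against 2), EPB41L2 (15638 against 0), PKP4 (10678 against 0), PSD3 (17108 against 7), PPDPF (7022 against 0) and GPC4 (a glypican, 6993 against 0). SMAD1 and BMP7 were named for the size of their differences, and BMP signalling as a whole was not tested. Reads of genes with near-identical copies, such as ANXA2, may be counted elsewhere.

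Among genes at a mean of 5 or more in both lines, the largest differences toward TMD8 included those of PRAME, a cancer-testis antigen (8.17 ± 0.08), TCL1A, a coactivator of AKT (7.80 ± 0.05), the smooth muscle myosin MYH11 (7.21 ± 0.11), FCRL5, BASP1 (6.59 ± 0.08), the calcium-activated channel TRPM4 (6.58 ± 0.08) and SNX18 (6.49 ± 0.05). PRAME lay between 13.29 and 13.57 in TMD8 and between 4.79 and 5.92 in DOHH2. Toward DOHH2 they were KANK2 (-7.57 ± 0.05), the meiotic cohesin STAG3 (-7.05 ± 0.10), ABLIM1 (-6.26 ± 0.05), the Rab regulator TBC1D4 (-6.20 ± 0.08), LY6E (-5.85 ± 0.08), the tubulin TUBB3 (-5.84 ± 0.08), UTRN (utrophin, -5.60 ± 0.09) and NUGGC, a germinal centre GTPase (-5.60 ± 0.05). KANK2 lay between 12.95 and 13.28 in DOHH2 and between 5.19 and 5.71 in TMD8.

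Both lines carried B cell markers, and many markers of other lineages were at or near 0 reads. The 14 B cell markers summed to 6042 to 6467 RPM (reads scaled to mapped reads) in TMD8 and 2702 to 3155 in DOHH2. The 19 T and NK cell markers summed to 3.95 to 5.78 in TMD8 and 14.8 to 20.8 in DOHH2, with CD2, CD8B, GZMA, KLRD1, THEMIS and TRAT1 at 0 reads in all libraries. CD247, the zeta chain of the T cell receptor complex, made up most of the DOHH2 level (1272 reads), and CD8A had 210 reads in TMD8 and 0 in DOHH2. The 15 myeloid markers summed to 4.64 to 6.37 in TMD8 and 58.7 to 66.5 in DOHH2, through CD33 (6263 reads against 1) and lysozyme, LYZ (762 against 7), with S100A8, S100A9, FCN1, ELANE and MARCO at 0. The 11 fibroblast and epithelial markers summed to 131 to 165 in TMD8 and 7.42 to 9.59 in DOHH2. E-cadherin, CDH1, accounted for most of this (12651 reads in TMD8 and 0 in DOHH2), and EPCAM, KRT18 and KRT19 were at 0. The part of other cells in the line differences was not tested.

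The line difference was also compared between 1, 3 and 6 h, to see how far it depended on the time in vehicle. By a limma F test, 2630 of 14159 features changed their difference at adjusted p under 0.05 (18.6%, and 4705 at unadjusted p under 0.05). Changes were mostly small, with a median absolute change of 0.31 between 1 and 6 h among those called, and 173 of them changed by at least 2-fold. When the times were tested alone, 10231 features were called in the same direction at 1 and 6 h and 153 in opposite directions.

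The 5 genes with the smallest p of this test were HSPH1, HSPA8, DNAJA1, BCOR and PTPN6. HSPH1, an exchange factor for chaperones of heat-shocked cells, stood at 13.72 and 13.69 in TMD8 at 1 h, 13.22 and 13.22 at 3 h and 13.02 and 13.09 at 6 h. In DOHH2 it stood at 13.29 and 13.29, then 13.20 and 13.18, then 14.17 and 14.14. TMD8 was thus higher at 1 h by 0.42, level at 3 h (0.03) and lower at 6 h (-1.10), with an F test adjusted p of 1.15e-08.

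HSPA8, a constitutive member of the same chaperone family, moved likewise from a difference of 0.83 at 1 h to -0.03 at 3 h and -1.13 at 6 h (adjusted p = 2.27e-08). In DOHH2 its values went from 15.16 and 15.10 at 1 h to 16.60 and 16.55 at 6 h, and in TMD8 from 15.99 and 15.93 to 15.45 and 15.44. The co-chaperone DNAJA1 kept its direction while its difference narrowed from 1.67 to 0.61. HSPA1B, a heat-inducible chaperone gene whose reads cannot be separated from those of its near-identical neighbour HSPA1A, turned from 2.60 to -1.03.

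BCOR, a corepressor of BCL6, was higher in DOHH2 at 1 h (12.87 and 12.85 against 11.96 and 11.93 in TMD8) and level at 6 h (11.99 and 11.98 against 12.01 and 11.98). PTPN6 (SHP-1, a phosphatase that damps receptor signalling) stood at 12.08 and 12.10 in DOHH2 at 1 h and at 11.38 and 11.39 at 6 h, while TMD8 stayed between 14.05 and 14.18. Its difference widened from 2.07 to 2.73. EGR3, an immediate early gene of B cell receptor signalling, had the largest turn between 1 and 6 h among features with both calls. It stood in DOHH2 at 8.56 and 9.16 at 1 h and at 2.98 and 2.37 at 6 h, against 8.04 and 8.0 and then 6.53 and 6.56 in TMD8, so that a difference of -0.84 became 3.87 (F test adjusted p = 3.84e-05).

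**Figure D5:**
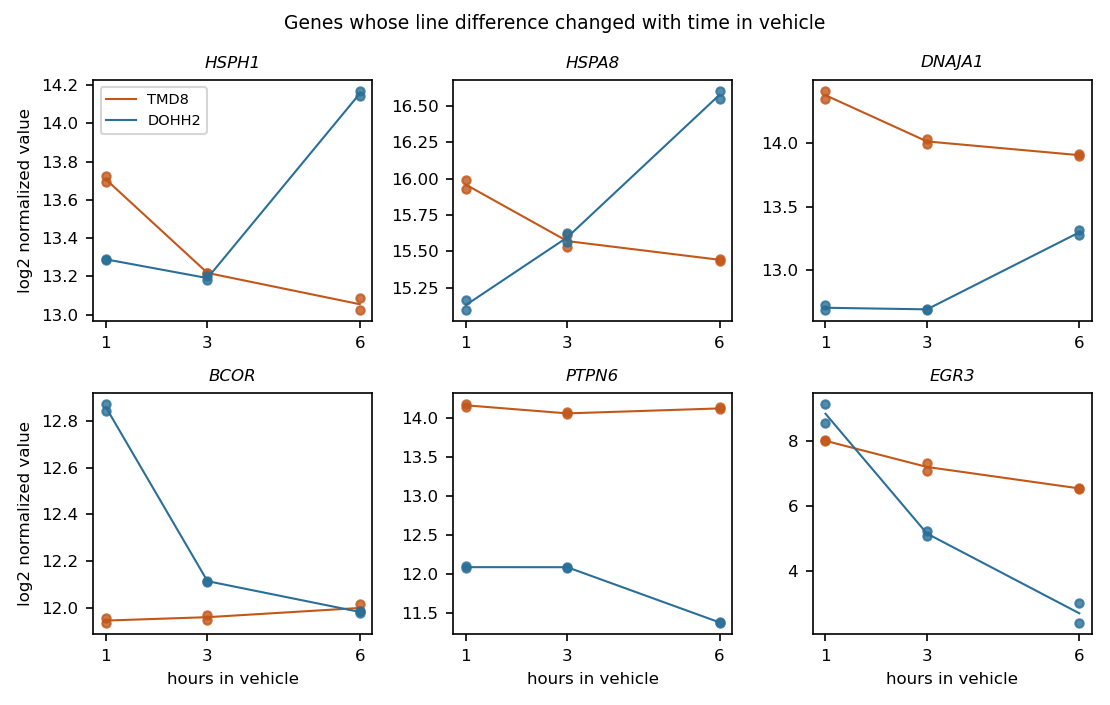
Log2 normalized value against hours in vehicle for 6 genes, with 2 libraries per line and time as points and their means joined by lines. HSPH1, HSPA8 and EGR3 cross between the lines (from 0.83 to -1.13 for HSPA8), BCOR converges, DNAJA1 narrows and PTPN6 widens.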

How the data were processed

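RNA was measured by paired-end sequencing of stranded mRNA libraries from TMD8 and DOHH2 cells. Per the submitters' processing notes, reads were counted with HTSeq on hg19. No aligner or strand setting is given in the sources used here. Whether reads of overlapping and antisense genes were told apart in the counting is therefore unknown. The values the authors deposited are log2 of normalized counts, and a feature without reads is listed at 0, as the values show. Reads were recovered by dividing by the value of 1 read. The first row, which gives the mapped reads per library, was removed. Gene IDs of 21304 of the 25066 features matched a RefSeq symbol, 3918 of them under a newer name.

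The 12 libraries were fitted with limma 3.58.1 in R 4.3.3 as 6 group means with eBayes(trend=TRUE) and 6 residual degrees of freedom, two-sided, with Benjamini-Hochberg adjustment over the 14159 features with a mean of 2.5 or more. The line difference averaged 1, 3 and 6 h with equal weight, and its change with time was an F test of 2 contrasts. The fit was also run on simulated reads in which few features changed, unlike these libraries, and no conclusion is drawn from that run. Alternatives covered filters, scalings, pseudocounts of 1 and 8, voom on the recovered reads, other sets of libraries and leaving out each library.

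The members and lists were chosen with earlier results of these data known. Genes were named by rule: all Lymph2Cx genes, the 10 largest differences each way read in 1 line and the 8 each way read in both, up to 6 of each list, members of the kinase, BCL2, NF-kB, transcription factor, MHC and cyclin lists, and the 5 with the smallest p for change with time. CD79A, CD79B, SYK, BTK, BIRC3, SOD2, TRAF2, MYD88, CXCR4, MCM5, TYMS, AURKA, EGR3 and HSPA1B were named after their values were seen. Some genes that the rule names are not reported here.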

Additional observations from a re-analysis of the deposited data

Results flagged for a closer look

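The line difference of 13 named genes depended on the time in vehicle by the F test, with a change of at least 1 log2 unit between some pair of times or a place among the 5 smallest p-values. Differences are TMD8 minus DOHH2, and the change is that at 6 h minus that at 1 h. Of these genes, 4 that encode chaperones or their partners shifted toward DOHH2, HSPH1 by -1.52, HSPA8 by -1.96, DNAJA1 by -1.07 and HSPA1B by -3.63. EGR3 shifted toward TMD8 by 4.71 (adjusted p = 3.84e-05) and BCOR by 0.93 (adjusted p = 4.49e-07). IRF4 went from 11.00 to 12.18, a change of 1.19 (adjusted p = 0.00358), which rests on between 6 and 12 reads per DOHH2 library. The survival gene BCL2A1 changed by 1.28 (adjusted p = 0.00048) and TCL1A by 1.05 (adjusted p = 0.00104). The death gene PMAIP1 went from -3.23 to -2.14, a change of 1.08 (adjusted p = 3.84e-05), and PTPN6 changed by 0.67 (adjusted p = 8.29e-07). CD274 changed by -1.15 (adjusted p = 0.0184), and SERPINA9 by 0.64 with its largest difference, -1.54, at 3 h (adjusted p = 0.0011). Leaving out 1 library at a time moved the number of features called by this test to between 1773 and 2243.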

How the results depend on the processing

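The number of features that differed between the lines stayed within 1.5 times of 12510 under every alternative run, from 10406 with a mean of 5 or more over the 12 libraries to 14421 with no filter on low values, and from 12356 to 12423 without 1 library. Features at least 2-fold higher in TMD8 numbered 1815 with a mean of 5 or more, where fewer features were tested, and 2909 to 2945 without 1 library. Those at least 2-fold higher in DOHH2 numbered 2534 to 2573 without 1 library. The count for change with time was the least stable, at 1478 without the trend in eBayes and 1046 with all 32 libraries in the fit, and the cause was not tested. Quantile normalization moved the median difference by -0.10 and gave 5732 features higher in TMD8 and 6926 in DOHH2, of which 2561 and 3104 by at least 2-fold. Scaling to total mapped reads was chosen after seeing the data and gave 12540.

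Replicate numbers did not pair the samples: deviations from the group means correlated at -0.06 to 0.02 over 15 pairs of groups. With a replicate block, 12498 features differed, 2927 and 2549 were at least 2-fold higher in TMD8 and DOHH2, and 2510 changed with time.

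Of 6200 combinations of 195 named genes and 32 alternatives, 6100 were counted as unchanged, 70 lost the call, 19 gained it and 11 reversed. A reversal was counted only for the 190 genes called in the main fit, so a turn among the rest counts as unchanged. At 1 h alone, AURKA (0.01), EGR3 (-0.84), HSPA8 (0.83) and HSPH1 (0.42) reversed. HSPH1 (0.027) and UBXN4 (-0.009) reversed at 3 h alone, and BCOR (0.017), HSPA1B (-1.03) and TYMS (0.26) at 6 h alone. With the 24 h libraries added, AURKA (0.011) and TYMS (0.086) reversed. A limma test against 2-fold itself left 2534 and 2118 features and no longer called BCL6, CD79A, MCL1, BCL2L1, CIITA and SERPINA9, among the named genes over 2-fold. At the level of the rule (16.7 to 26.4 reads) and below, counting noise limits what can be told apart.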
